A study of Mus musculus with 6 samples.

Results

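The angiopoietin-Tie and PDGF systems were examined in glomerular endothelial cells (GEC) through 10 genes, namely Tek, Tie1, Angpt1, Angpt2, Ptprb, Pdgfa, Pdgfb, Pdgfd, Pdgfra and Pdgfrb. They were chosen by name as signals between endothelium and its supporting cells, and each was read by the probeset whose single annotated symbol was that gene. All 10 were found, each with 1 probeset, among 19938 genes that had such a probeset. The db/db group held 3 samples from mice homozygous for the diabetes mutation, which removes the working leptin receptor and leads to obesity and diabetes, and the normal group held 3 samples from mice with the genotype +/+. Both groups carried the Tie2-GFP transgene, both were 7 months old, and GEC were sorted by FACS from sieved glomeruli, with 1 Affymetrix Mouse Gene ST array for each sample. Sex, strain and whether animals were pooled are not given in the sources used here.

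Tie2, the product of Tek, is a receptor tyrosine kinase of endothelium that is activated by angiopoietin 1 (Angpt1) from neighbouring cells and thereby favours a quiescent, tight vessel wall. Angiopoietin 2 (Angpt2) is made by endothelium itself and can oppose Angpt1, Tie1 is a related receptor that modulates Tie2, and Ptprb encodes VE-PTP, the endothelial phosphatase that removes phosphate from Tie2. PDGF-B (Pdgfb), secreted by endothelium, recruits cells that carry the receptor PDGFRβ (Pdgfrb), and in the glomerulus this signal is needed for mesangial cells to form. Pdgfa and Pdgfd encode further ligands, and Pdgfra encodes the receptor that is typical of fibroblasts.

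The sort was itself tied to Tek. GFP was made from a transgene under Tie2 regulatory sequence. Cells thus entered the samples by the activity of that transgene, and a level of Tek between these samples is read within that gate. Short stretches of the Tek promoter are shown because regulatory sequence of this gene drove the sort, and one of the Tie1 promoter because Tie1 is the related receptor. Whether the stretches of Tek are part of the transgene is not given in the sources used here. Of the 10 genes 5 had an entry in the RefSeq promoter set (GRCm38.p6), and Angpt1, Angpt2, Ptprb, Pdgfb and Pdgfrb had none. The letters TTCCTG, a core bound by ETS factors, were searched on both strands (as CAGGAA on the other) in the 300 bases around each annotated start. They stood at 2 places in the Tek window, at 2 in that of Pdgfra, at 1 in that of Tie1 and at 0 in those of Pdgfa and Pdgfd, and 30.6% of 32851 promoters of that length held them at least 1 time. The match in Tie1 began 209 bases before the gene start used in that set, and those in Tek began 89 and 59 bases before theirs. Each is given 5′ to 3′ on the gene's strand with 12 bases on either side, and capitals mark the 6 letters searched.
Tek at chr4:94739188-94739217 (+ strand): cttgttattcaaTTCCTGgcctatgagagg
Tek at chr4:94739218-94739247 (+ strand): atacccctattgTTCCTGaaaatgctgacc
Tie1 at chr4:118490041-118490070 (− strand): ggcttcctccctTTCCTGtctcccgtgctc

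Values are log2 probeset signal, and since probes differ in how strongly they bind, a level is compared between samples and never between genes. Medians per array lay between 7.00 and 7.04 and arrays correlated pairwise with r of 0.924 to 0.953 over the tested probesets. Normal replicate 2 stood apart from the other arrays along the leading principal component (30.5% of variance). It held the highest value of 21.9% of tested probesets, against 14.2% to 18.8% for the other arrays. It also held the lowest value of 22.5%, against 13% to 20.6% for the others, so that it was extreme in both directions. Results that rest on it are given with and without it. A probeset was tested where its signal reached a level of 100 in linear units (6.64 on the log2 scale) in at least 3 arrays. The identity of the cells was checked with 12 endothelial markers, all of which reached the level. Kdr, a VEGF receptor, had 13.18 ± 0.00 in db/db and 13.08 ± 0.02 in normal GEC (mean ± SD, n = 3 each). Emcn, a sialomucin of capillary endothelium, had 13.63 ± 0.04 in db/db and 13.59 ± 0.02 in normal GEC (n = 3 each). Of 13 mesangial and mural markers with a probeset 7 reached the level in enough arrays to be tested, among them Acta2, Tagln and Notch3, while Rgs5, Des and Itga8 lay below it in all arrays. The summed linear signals of fibroblast and of tubule markers overlapped between groups, at 620 to 679 in db/db and 564 to 669 in normal arrays for 6 fibroblast genes, and at 784 to 855 in db/db and 695 to 814 in normal arrays for 6 tubule genes.

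In db/db GEC the Tie2 receptor gene Tek and the ligand gene Pdgfb gave lower signal in every sample than in any normal sample, whereas Tie1 and the Tie2 phosphatase gene Ptprb overlapped between groups. Of the 10 genes 7 reached the level and were tested, and Angpt2, Pdgfra and Pdgfrb were not. None passed the test with limma and Benjamini-Hochberg adjustment over 20661 probesets (0 of 7, against 0% of all tested probesets, smallest adjusted p of any probeset = 0.203). At an unadjusted limma p under 0.05 there were 2 of the 7, Tek and Pdgfb, both lower in db/db, where 2.91% of all tested probesets were lower at that p. With the methods' t-test, unpaired and on the same values, Tek alone had such a p, as did 6.2% of all tested probesets.

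**Figure D1:**
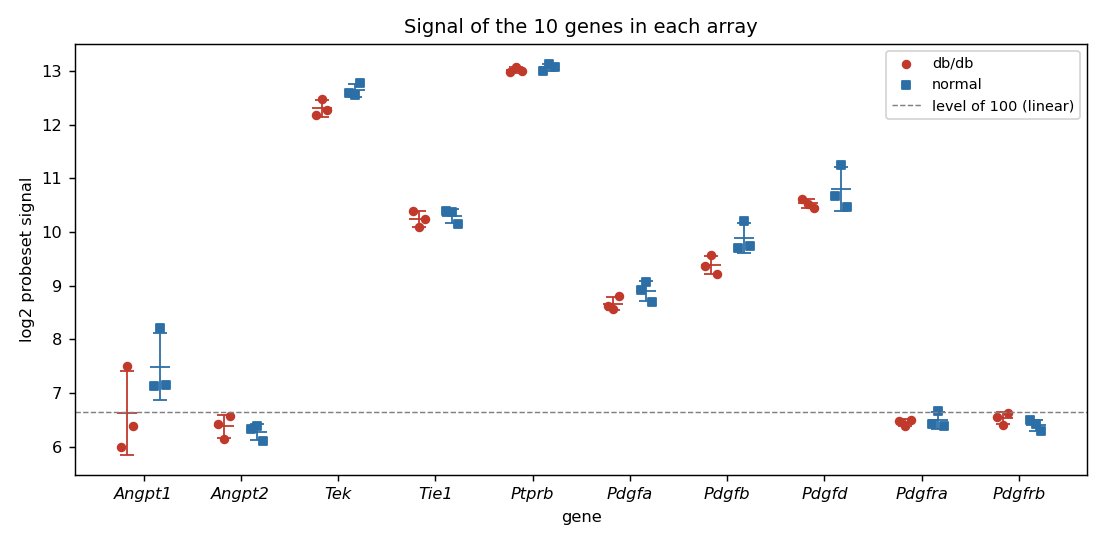
Log2 probeset signal (vertical axis) of the 10 genes in each array of db/db (circles) and normal (squares) GEC, where bars give group means with their SD (n = 3) and the level of 100 on the linear scale (dashed line). The db/db points of Tek and Pdgfb lie below all normal points, and Angpt2 and Pdgfrb lie below the dashed line in all 6 arrays.

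Tek, the Tie2 receptor gene, had signals of 12.18, 12.48 and 12.26 in db/db replicates 1 to 3, against 12.59, 12.55 and 12.77 in normal replicates 1 to 3. On the linear scale these were 4626, 5731 and 4915 in db/db GEC, against 6176, 6013 and 6998 in normal GEC. The groups did not overlap, but the gap between the highest db/db array and the lowest normal array was 0.07 on the log2 scale, less than the SD within either group (0.16 in db/db and 0.12 in normal). The mean was 20.6% lower in db/db on the linear scale (log2 change -0.33 ± 0.12 SE, 95% interval -0.62 to -0.04, limma adjusted p = 0.754). Its change stayed between -0.42 and -0.27 when single arrays were left out. The unadjusted limma p was no longer under 0.05 without db/db replicate 1 or 3 or normal replicate 1 or 3 (4 of 6 omissions). In bulk RNA of sorted cells, fewer cells with a transcript and less transcript per cell cannot be told apart.

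Endothelial markers differed in direction. Of the 12, 9 had a higher and 3 a lower mean in db/db (46.1% of all tested probesets had a lower mean), and none passed the adjusted test. In 6 every db/db array was above every normal array (7.01% of all tested probesets), and in 2 every db/db array was below (5.31% of all tested probesets). As for Tek, the groups were apart and lower for Flt1, a VEGF receptor, at 12.70 ± 0.11 in db/db and 12.82 ± 0.05 in normal GEC, and for Ehd3, an endocytic protein enriched in glomerular endothelium, at 12.65 ± 0.03 in db/db and 12.76 ± 0.10 in normal GEC (n = 3 each). The gaps were 0.0033 for Flt1 and 0.0175 for Ehd3 on the log2 scale, narrower than the 0.07 of Tek. Robo4, an endothelial guidance receptor, overlapped with a log2 change of -0.16. The summed linear signal of the 12 endothelial markers was 62186 to 63291 in db/db arrays and 59842 to 60430 in normal arrays, and was thus higher in every db/db array. Cdh5, the adhesion protein VE-cadherin, had 13.06 ± 0.03 in db/db and 12.85 ± 0.07 in normal GEC (n = 3 each), with a log2 change of 0.21 (95% interval 0.01 to 0.40, limma adjusted p = 0.754). Cldn5, a tight junction protein, had the highest change of that list at 0.98 (limma adjusted p = 0.645). Of the leukocyte markers, a lineage in which some cells use Tek, 4 were tested, and 2 had a higher and 2 a lower mean in db/db. Cd68 was higher in every db/db array, at 7.48 ± 0.53 in db/db and 6.72 ± 0.09 in normal GEC (n = 3 each, limma adjusted p = 0.752). Cd14 was lower in every db/db array, at 8.33 ± 0.04 in db/db and 9.03 ± 0.83 in normal GEC (n = 3 each, limma adjusted p = 0.84). Cd3e overlapped with a log2 change of -0.11, and C1qa overlapped with 0.44. The summed signal of all 10 leukocyte markers overlapped, with 1163 to 1553 in db/db and 1153 to 1868 in normal arrays, and 4 of them, among them Ptprc and Csf1r, were below the level in all arrays. Lyz2, the lysozyme of myeloid cells, reached the level in 2 db/db arrays, with 7.41, 6.82 and 6.61 in db/db, against 6.21, 6.19 and 6.63 in normal GEC. C1qb, a complement chain made by macrophages, reached it in 1, with 6.88, 6.48 and 6.49 in db/db, against 6.48, 6.47 and 6.31 in normal GEC. Neither was tested. The part of either list in the signal of Tek was not tested.

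Tek lies on chromosome 4, as does Lepr, the gene that is mutated in db/db, with 35 protein-coding genes annotated between them in RefSeq. Of these 17 had a tested probeset, with a median log2 change of 0.10, and 1 of the 17 was below all normal arrays in each db/db array (5.88%, against 5.31% of all tested probesets). This neighbourhood was looked at after the values of Tek had been seen.

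Tie1, the related receptor, also on chromosome 4 but beyond Lepr, gave 10.38, 10.10 and 10.24 in db/db, against 10.39, 10.37 and 10.15 in normal GEC. The 2 ranges overlapped almost entirely. Its log2 change was -0.06 ± 0.12 SE with a 95% interval of -0.35 to 0.23, so that a change as large as that estimated for Tek lay within the interval. The difference between both receptors was not tested. Ptprb, the phosphatase that acts on Tie2, had 12.97, 13.08 and 13.01 in db/db, against 13.00, 13.13 and 13.07 in normal GEC. Its whole range over 6 arrays was 0.16, the narrowest of the 10 genes, with a log2 change of -0.05 ± 0.08 SE (95% interval -0.25 to 0.15, limma adjusted p = 0.95).

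Angpt1, the ligand that activates Tie2 and is made in the glomerulus mainly by cells other than endothelium, had the widest spread of the 10 genes. It gave 5.99, 7.50 and 6.38 in db/db, against 7.12, 8.21 and 7.14 in normal GEC. All 3 normal arrays and 1 db/db array, replicate 2, reached the level, so that Angpt1 entered the test chiefly through the normal group. The groups overlapped, because db/db replicate 2 was above normal replicates 1 and 3. On the linear scale the signal ranged from 63.5 in db/db replicate 1 to 297 in normal replicate 2. The means were 6.63 ± 0.79 in db/db and 7.49 ± 0.63 in normal GEC (SD, n = 3 each), a log2 change of -0.87 ± 0.49 SE whose 95% interval ran from -2.08 to 0.35 (limma adjusted p = 0.84). The change was -0.51 without normal replicate 2 and -1.30 without db/db replicate 2. In the latter case its unadjusted limma p was under 0.05 and its adjusted p was 0.77. The db/db arrays left there lay below the level, so that Angpt1 was tested through the normal arrays alone and no weight is put on that p.

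Cells that could bring Angpt1 into the sort were looked at through their markers. The summed linear signal of the 13 mesangial and mural markers was 2028 to 2259 in db/db and 1856 to 2077 in normal arrays. Of the 7 tested, 6 had a higher and 1 a lower mean in db/db, where 46.1% of all tested probesets had a lower mean. Groups were apart in 0 of the 7, against 7.01% of all tested probesets apart and higher and 5.31% apart and lower. Meis1, a homeobox gene, was at 8.93 ± 0.13 in db/db and 8.64 ± 0.61 in normal GEC, and Mylk, the myosin light chain kinase, was at 8.76 ± 0.10 in db/db and 8.68 ± 0.11 in normal GEC (n = 3 each). The higher db/db mean of Meis1 rested on normal replicate 2, at 7.94, against 9.03 and 8.94 in normal replicates 1 and 3. Myl9, another of the 6, was also lowest in that array, at 6.38, against 7.43 and 7.02 in normal replicates 1 and 3. Of 5 podocyte markers 4 reached the level, and the sum over the 5 was 789 to 878 in db/db and 864 to 999 in normal arrays. Among them Cdkn1c, a cell cycle inhibitor, was lower in every db/db array, at 8.48 ± 0.09 in db/db and 8.89 ± 0.17 in normal GEC (n = 3 each, limma adjusted p = 0.677). The other 3 tested podocyte markers had a higher mean in db/db, with log2 changes of 0.06 for Nphs1 (nephrin), 0.08 for Wt1, whose groups were apart, and 0.24 for Synpo (synaptopodin). Platelets store angiopoietin 1 and PDGF, and the sum over 5 erythrocyte and platelet markers was 721 to 1058 in db/db and 985 to 1309 in normal arrays. Their directions differed. The platelet chemokine genes Ppbp and Pf4 overlapped between groups with log2 changes of -0.84 and -0.66, the erythroid gene Alas2 had -0.10, whereas the platelet integrin gene Itga2b was higher in every db/db array with 0.26 and the platelet glycoprotein gene Gp9 had 0.08, and none passed the adjusted test. The part of podocytes, mural cells or platelets in the ligand values was not tested.

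Angpt2, the ligand that can oppose Angpt1, lay below the level in all 6 arrays, with 6.42, 6.15 and 6.57 in db/db, against 6.33, 6.39 and 6.11 in normal GEC. The groups overlapped and no fold is given.

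Pdgfb, the endothelial ligand that recruits mesangial cells, had 9.37, 9.57 and 9.22 in db/db, against 9.70, 10.21 and 9.74 in normal GEC. Every db/db array was below every normal array, with a gap of 0.13 on the log2 scale, less than the SD within either group (0.18 in db/db and 0.28 in normal). In linear signal the db/db arrays had 661, 759 and 595, against 832, 1181 and 857 in normal arrays. The mean was 29.2% lower in db/db (log2 change -0.50 ± 0.17 SE, 95% interval -0.93 to -0.07, limma adjusted p = 0.752). Without normal replicate 2, the highest array, the change was -0.34 and its unadjusted limma p was no longer under 0.05. That p was also lost without db/db replicate 1 or 3. Tek and Pdgfb were thus 2 of 7 tested genes that were apart and lower in db/db, against 5.31% of all tested probesets, and 0 of 7 were apart and higher, against 7.01%.

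Pdgfa, which encodes the PDGF-A chain, had 8.63, 8.57 and 8.80 in db/db, against 8.91, 9.07 and 8.70 in normal GEC. The groups overlapped in 1 pair of arrays, since db/db replicate 3 was above normal replicate 3. Its log2 change was -0.23 ± 0.13 SE (95% interval -0.55 to 0.09, limma adjusted p = 0.838), and -0.14 without normal replicate 2. Pdgfd, a ligand of PDGFRβ that must be cut by a protease to become active, had 10.62, 10.53 and 10.45 in db/db, against 10.66, 11.25 and 10.46 in normal GEC. Only normal replicate 2 was well above the db/db arrays. Its log2 change was accordingly -0.26 ± 0.21 SE with all arrays (95% interval -0.79 to 0.27) and -0.03 without normal replicate 2.

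The 4 tested ligand genes, Angpt1, Pdgfa, Pdgfb and Pdgfd, all had their highest value in normal replicate 2, as did Ptprb. In that array they were 0.29 (Pdgfa), 0.57 (Pdgfb), 0.59 (Pdgfd) and 1.16 (Angpt1) above the mean of their 6 arrays. Tek behaved otherwise, with its highest value in normal replicate 3 and its lowest in db/db replicate 1. Other genes set that array apart too, such as Cd14, a receptor for bacterial lipopolysaccharide, which gave 9.97 there, against 8.30, 8.38 and 8.31 in db/db arrays and 8.70 and 8.43 in normal replicates 1 and 3.

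**Figure D2:**
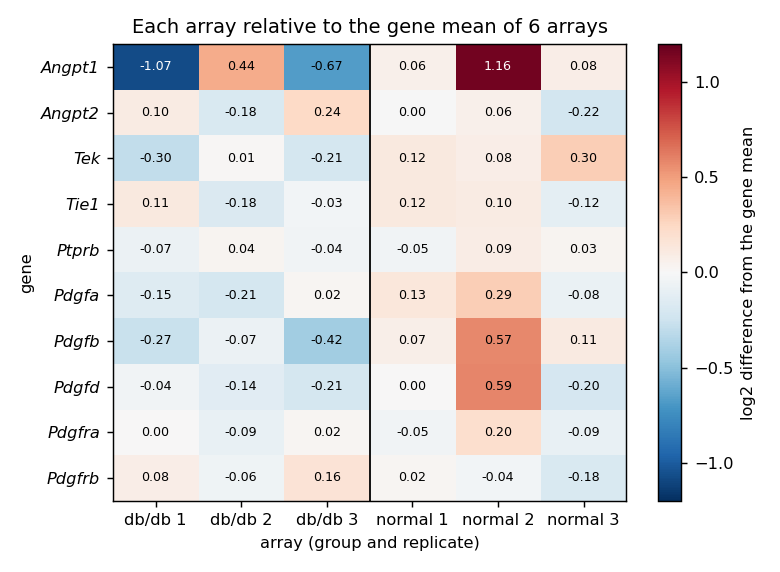
Difference of each array (columns, db/db left of the line and normal right of it) from the mean of 6 arrays for each of the 10 genes (rows), on the log2 scale. Normal replicate 2 is the highest array for Angpt1, Pdgfa, Pdgfb and Pdgfd, and Tek is at or below 0.01 in the db/db arrays and at or above 0.08 in the normal arrays.

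The PDGF receptor genes gave signal at or below the level. Pdgfrb, the receptor of mesangial cells and pericytes, had 6.54, 6.41 and 6.63 in db/db, against 6.49, 6.43 and 6.28 in normal GEC, below the level in all 6 arrays. Pdgfra, the receptor of fibroblasts, had 6.48, 6.39 and 6.49 in db/db, against 6.43, 6.67 and 6.38 in normal GEC, and reached the level only in normal replicate 2. Both overlapped between groups, and neither was tested.

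**Figure D3:**
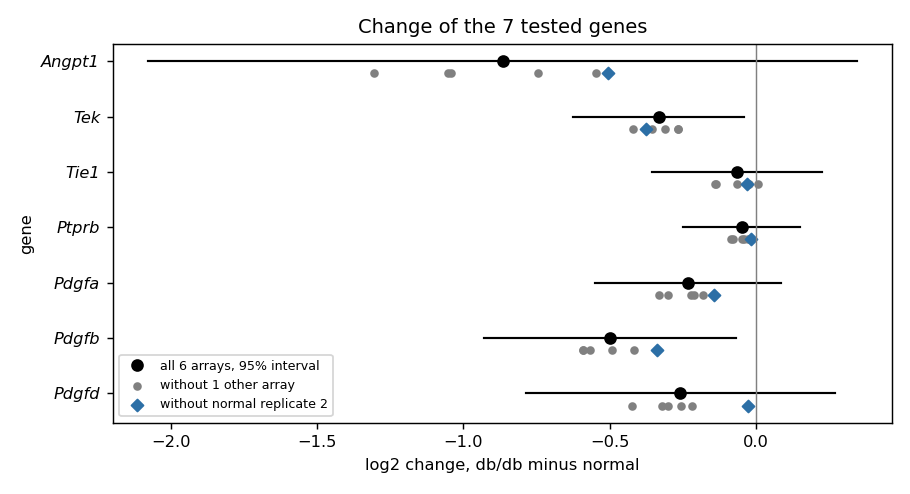
Log2 change, db/db minus normal (horizontal axis), of the 7 tested genes (rows) with all 6 arrays (black points, bars for limma's 95% interval), without normal replicate 2 (diamonds) and without each other array in turn (grey points). The intervals of Tek and Pdgfb exclude 0, and the diamond of Pdgfd sits at -0.03.

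All 7 tested genes had a lower mean in db/db, against 46.1% of all tested probesets, with a median log2 change of -0.26 against 0.01 over all tested probesets. Without normal replicate 2 the median of the 7 was -0.14, and that of all tested probesets was again 0.01. The 7 leave out the 3 genes below the level, of which Angpt2 and Pdgfrb had a higher mean and Pdgfra a lower mean in db/db, and Angpt1 reached the test mainly through the normal arrays. The changes of Ptprb and Tie1 were -0.05 and -0.06, and those of Tek and the 4 ligand genes lay between -0.87 and -0.23. Without normal replicate 2 these 5 ran from -0.51 to -0.03, so that Pdgfd was as near to 0 as Tie1 (-0.03) and Ptprb (-0.02).

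Other genes of the same pathways had medians near that of all tested probesets. Of 18 further genes of angiopoietin-Tie signalling 16 were tested, and 0 passed adjusted over all probesets, while at an unadjusted limma p under 0.05 there was 1 higher and 1 lower, with a median log2 change of 0.02 (percent of all tested probesets at that p, 3.48 higher and 2.91 lower). The lower gene was Grb2, an adaptor that links receptor tyrosine kinases to Ras, with 8.73, 8.81 and 8.53 in db/db, against 9.01, 9.09 and 8.90 in normal GEC. Its groups did not overlap, and its log2 change was -0.31 (95% interval -0.58 to -0.04, limma adjusted p = 0.752). That p was lost without db/db replicate 1 or 3 or normal replicate 1 or 2. The higher gene was Cdh5, given above, whose protein is held in junctions with VE-PTP, and it lost that p without any 1 of the 6 arrays. Angpt4, the further ligand of Tie2, was at 6.98 in both groups, and Svep1, a matrix protein that binds Tie1, was below the level. Of the 16 tested genes 3 were apart and lower in db/db, namely Grb2, Klf2 and Grb14 (5.31% of all tested probesets), and 1, Cdh5, was apart and higher (7.01%). The gaps of Klf2 and Grb14 were 0.03 and 0.02, and Grb14 reached the test mainly through the normal arrays.

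Among 23 further genes of PDGF signalling with a probeset 20 were tested, with 0 past the adjusted test, 1 higher and 1 lower at an unadjusted limma p under 0.05, and a median log2 change of 0.05. Nck2, an adaptor that binds activated PDGF receptors, had 7.64, 7.96 and 7.64 in db/db, against 7.39, 7.39 and 7.14 in normal GEC. It was higher in every db/db array, with a log2 change of 0.44 (95% interval 0.11 to 0.77, limma adjusted p = 0.684), and its unadjusted p was under 0.05 except without normal replicate 3. The lower gene was Grb2 again, which belongs to both lists, as do Shc1, Pik3r1 and Ptpn11. Of the 20 tested genes 3 were apart and higher in db/db (7.01% of all tested probesets) and 1 was apart and lower (5.31%). Plat, the tissue plasminogen activator that can cut PDGF-C, gave 13.35 ± 0.07 in db/db and 13.27 ± 0.05 in normal GEC (n = 3 each). Its substrate gene Pdgfc was below the level. Sparc, a matrix protein that binds PDGF-B, had 13.58 ± 0.07 in db/db and 13.51 ± 0.02 in normal GEC (n = 3 each), and neither Plat nor Sparc passed the test.

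Other signals between endothelium and mural cells were read through 15 tested genes, of which 0 passed the adjusted test. S1pr1, the sphingosine-1-phosphate receptor that strengthens endothelial junctions, was the only one with an unadjusted limma p under 0.05, with 12.14, 12.18 and 12.22 in db/db, against 12.00, 11.69 and 11.96 in normal GEC. Every db/db array was above every normal array. Its log2 change was 0.30 (95% interval 0.03 to 0.57, limma adjusted p = 0.754), and its unadjusted p was lost without any 1 db/db array or normal replicate 2. The median change of this list was 0.02, near that of all tested probesets. Of its 15 tested genes 3 were apart and higher in db/db (7.01% of all tested probesets) and 3 were apart and lower (5.31%). Among these Kdr and Eng (higher) and Flt1 (lower) are also endothelial markers and were counted there too.

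**Figure D4:**
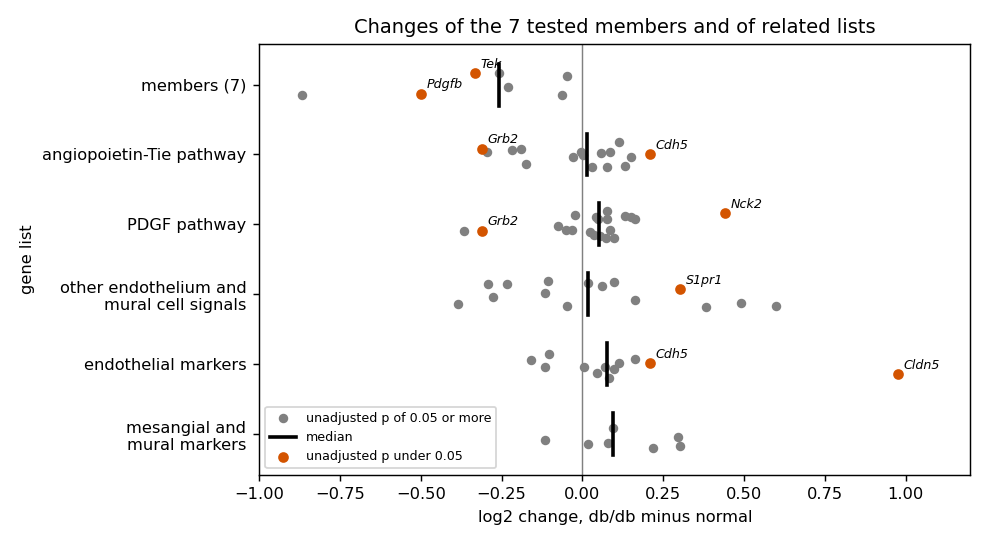
Log2 change, db/db minus normal (horizontal axis), of each tested gene (points) in the 7 members and in related lists (rows), where black bars mark medians, and with genes of an unadjusted limma p under 0.05 named. The members have a median of -0.26 with all arrays and of -0.14 without normal replicate 2, whereas the medians of the 3 pathway lists lie between 0.02 and 0.05 with all arrays (0.01 to 0.09 without that array).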

How the data were processed

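The deposited values were log2 probeset signals that the authors had normalised, with 1 column per array. The study's methods state RMA in GeneSpring after amplification with a NuGEN kit, but MAS5 is the only tool in the submitters' processing notes, and the genome build behind the probesets is not given in the sources used here. Sorted values differed between arrays by at most 0.114, which leaves changes relative to the rest of each array. Of 35557 probesets 21789 had 1 gene symbol, and 20661 that reached 100 in linear units in 3 or more arrays were tested.

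Groups were taken from the sample labels. Change, db/db minus normal, was fitted with limma 3.58.1 (lmFit and eBayes, R 4.3.3), two-sided, adjusted by Benjamini-Hochberg over every tested probeset at a threshold of 0.05. Errors are SD over 3 arrays or limma's SE, and precision is limited by the number of arrays. The labels call the samples biological replicates. For genes with several probesets the one of highest mean was used. All 10 members were named, with up to 3 genes of each pathway list by p, its gene of highest mean signal, and markers of highest mean. Further genes were named after their values were seen, namely Angpt4, Svep1, Pdgfc, Plat, Klf2, Grb14 and most markers. Within-array differences of Angpt2 from Angpt1 and Pdgfb from Pdgfrb had been planned and are not reported, since Angpt2 and Pdgfrb lay below the level in all arrays. Members and lists were chosen with earlier results of these data known. The fit was tested on simulated independent values with added changes larger than any of the 10 genes. It therefore says nothing of how well changes of their size are found. Alternatives were other normalisations, level filters and variance priors, array weights, a replicate block, omission of each array, the methods' t-test and 1 probeset per gene. Symbols came from GEO's platform annotation. Promoter letters were taken from RefSeq, and figures were drawn with matplotlib 3.10.9.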

Additional observations from a re-analysis of the deposited data

How the results depend on the processing

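None of the 7 tested genes passed the adjusted test under any of 16 alternatives (lowest adjusted p = 0.58). Over all probesets 0 passed as well, except with 1 probeset per gene, where 1 of 12763 did. The absence of a pass is thus shared with nearly all probesets. Of their 111 log2 changes under these alternatives 110 kept their direction. The exception was Tie1, whose change ran from -0.14 to 0.0073 when an array was left out and was above 0 without db/db replicate 2. Level filters, variance priors, the replicate block, the t-test and 1 probeset per gene leave a log2 change as it is. Only other normalisations, array weights and omission of an array could have altered a direction. The 2 genes with an unadjusted p under 0.05, Tek and Pdgfb, were less stable. There was 1 such gene (Tek) with the methods' t-test, and between 0 and 3 when an array was left out. Over all probesets 1280 of 20661 had such a p with the t-test. On omission the total ran from 1030 of 20242 (without db/db replicate 3) to 1456 of 20297 (without normal replicate 3). There were 0 without db/db replicate 1 or 3, only Pdgfb without normal replicate 1, only Tek without normal replicate 2, Pdgfa and Pdgfb without normal replicate 3, and Tek, Angpt1 and Pdgfb without db/db replicate 2. Without db/db replicate 2 Angpt1 reached the level in the normal arrays alone, and its p there carries no weight. The number of genes whose groups were apart was 2 under other normalisations and ran from 2 to 4 when an array was left out. Omission of an array cannot lower that number, and the share of all probesets was not counted there, so that no result is read from it. The number of pathway genes with an unadjusted p under 0.05 ran from 1 to 5 when an array was left out. It ran from 3 to 6 under the other alternatives, against 4 with all arrays. The 6 were found with array weights, where 1509 of 20661 probesets had such a p, against 1320 of 20661 in the main fit. The median change of the 7 genes ran from -0.33 to -0.14, with -0.14 without normal replicate 2, an alternative chosen after seeing the data. The change of Pdgfd was -0.03 without normal replicate 2.

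The labels do not say that replicate numbers pair the samples. Same-numbered deviations correlated with r of 0.00, 0.04 and -0.03 over 20661 probesets, which cannot exclude a pairing that acts on some probesets. With the number as a replicate block 0 members passed and 2 had an unadjusted limma p under 0.05, namely Pdgfb and Angpt1 (adjusted p = 0.72 and 0.598), and not Tek (adjusted p = 0.821). Of all 20661 probesets 0 passed with the block and 1287 had such an unadjusted p. Each gene has 1 probeset, so a mean over probesets was not run. Signals below the level of 100, as for Angpt2, Pdgfra and Pdgfrb, limit what can be said of those genes, and 3 arrays a group limit the rest.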
